A study of Mus musculus with 12 samples.

Results

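The 9 genes described here make, remove or process DNA methylation in the mouse, and they were read from polyadenylated RNA of TPS (totipotent potential stem) cells and EPS (extended pluripotent stem) cells. They were taken by name from the 55401 genes in the count files, and all 9 were among the 17468 genes with enough counts to be tested. The writers are Dnmt1, Dnmt3a, Dnmt3b and Dnmt3l with the maintenance cofactor Uhrf1, and the erasers are Tet1, Tet2, Tet3 and Tdg. The TPS lines numbered 3 and the EPS lines 3, with 2 technical replicates for each line, and all were grown on feeder cells. The labels place TPS cells in VCED medium on a 4C basic medium and EPS cells in LCDM medium. The study's methods name a TPS medium that holds VPA (an inhibitor of histone deacetylases), EPZ004777 (of DOT1L), CHIR-99021 (of GSK3) and CD1530, which activates RARγ. They give TPS lines of both embryo and stem cell origin, and the origin, strain and sex of the sequenced lines are not given in the sources used here. The comparison asked how the RNA of this machinery differed between the TPS and EPS states.

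Cytosines of CpG dinucleotides carry methyl groups on both strands, and replication leaves the new strand unmarked. UHRF1 binds such hemimethylated sites and brings DNMT1, which copies the mark. DNMT3A and DNMT3B methylate unmarked DNA, and DNMT3L, which has no catalytic activity of its own, stimulates them in germ cells and early embryos. TET1, TET2 and TET3 are dioxygenases that oxidise the methyl group, and the glycosylase TDG cuts out the most oxidised forms, after which base excision repair restores cytosine. Mouse pluripotent stem cells are known for high Tet1 and for de novo enzymes, and the preimplantation embryo is known for a genome-wide loss of the mark. RNA levels of the enzymes are not a measure of methylation, which was not analysed here.

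CpG sites are the substrate of these enzymes and differ in number between the starts of the genes themselves, so the stretches upstream of 3 of the 4 genes that passed the test of their RNA are shown. They are the 250 bases before a RefSeq start in build GRCm38.p6, on the strand of the gene, in lower case with each CpG in capitals, and each is the stretch with the most CpGs among those of its gene that overlap no exon of the GENCODE M21 annotation. The counts are per gene, so which start was used was not measured. Dnmt3a is shown at chr12:3806730-3806979, Uhrf1 at chr17:56304063-56304312 and Dnmt3l at chr10:78049592-78049841, all on the plus strand.
Dnmt3a: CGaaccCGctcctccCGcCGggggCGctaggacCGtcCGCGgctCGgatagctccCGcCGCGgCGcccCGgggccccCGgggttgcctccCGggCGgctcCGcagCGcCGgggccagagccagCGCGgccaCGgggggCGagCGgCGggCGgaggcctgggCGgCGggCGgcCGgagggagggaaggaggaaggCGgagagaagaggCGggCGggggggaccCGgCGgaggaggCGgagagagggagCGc
Uhrf1: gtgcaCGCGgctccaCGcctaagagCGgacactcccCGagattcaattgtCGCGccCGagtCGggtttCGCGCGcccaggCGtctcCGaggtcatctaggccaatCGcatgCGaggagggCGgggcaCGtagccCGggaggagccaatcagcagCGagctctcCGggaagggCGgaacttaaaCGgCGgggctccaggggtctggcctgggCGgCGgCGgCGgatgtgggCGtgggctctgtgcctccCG
Dnmt3l: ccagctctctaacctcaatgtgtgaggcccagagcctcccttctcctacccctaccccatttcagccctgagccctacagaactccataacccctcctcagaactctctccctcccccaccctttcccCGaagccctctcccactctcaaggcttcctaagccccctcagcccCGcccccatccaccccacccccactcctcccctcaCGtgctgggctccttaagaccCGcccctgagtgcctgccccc
The Dnmt3a stretch holds 38 CpGs, and 1.88% of the 32851 windows of this length in the table hold that many or more. The Uhrf1 stretch holds 30, a number reached by 5.94% of windows. The Dnmt3l stretch holds 4, which 62.2% of windows reach, and the median window holds 6. The starts not shown hold 40 and 15 CpGs at Dnmt3a, 10 at Uhrf1, and 5 and 3 at Dnmt3l. Across the 16 windows of the 9 genes the count ran from 2, at 1 of the Dnmt1 starts, to 51 at Tet2.

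An E2F motif, written TTTCGCGC or TTTGGCGC and searched on both strands, occurs in 0.654% of all windows and in 2 of the 16 windows of these genes. These are windows of Dnmt1 and Uhrf1, and the sites are printed with the motif in capitals and the flanking bases in lower case. The motif itself contains CpG, the windows hold 26 and 30 CpGs, and the share over all windows was not matched for CpG number. The Dnmt1 site is at chr9:20952826-20952851 on the minus strand, in a window that holds 166 exon bases, and the Uhrf1 site at chr17:56304119-56304144 on the plus strand.
Dnmt1: tttccgcgcGCGCGAAAaagccgggg
Uhrf1: cgagtcgggTTTCGCGCgcccaggcg
A TCF/LEF motif, written CTTTGATC, CTTTGAAC or CTTTGATG, was in none of the 16 windows and in 2.54% of all windows. Pairs of AGGTCA or AGTTCA spaced by NNNNN, the DR5 form of a retinoic acid response element, were also in none of them, against 0.0335% of all. The letters CCAAT were in 6 of the 16 windows and in 33.8% of all. These matches describe letters only, and binding of any factor was not measured.

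Total counts ran from 14652746 to 21821707 per TPS library and from 13676051 to 20077288 per EPS library. The libraries of a line were further apart than counting noise alone allows, at a chi-square of 2.58 to 9.61 for each degree of freedom in 5 lines and of 22.3 in EPS line 3. They were summed, and the line was the replicate. Nothing in the sources says how far the lines are independent, so p-values measure the spread between these lines. All 8 markers of the 2-cell stage passed the test as higher in TPS lines, where their summed level was 178 to 228 CPM against 0.0589 to 0.142 CPM in EPS lines. They were chosen with earlier results of these data known, and the study names Gm5662, Zscan4c and Zfp352 from its own bulk comparison. They are therefore no independent check of the labels. Of 8 pluripotency markers, 3 were lower in TPS lines (Klf4, Esrrb and Pou5f1) and 5 did not pass the test. Over all genes tested 14.4% were called higher and 7.34% lower. Fibroblast markers were also higher in TPS lines, with values given further on.

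In TPS lines Dnmt3a was higher than in EPS lines and Tet1, Dnmt3l and Uhrf1 were lower, by edgeR's quasi-likelihood test with p-values adjusted over all genes and a threshold of 0.05. The other 5 genes, Dnmt1, Dnmt3b, Tet2, Tet3 and Tdg, did not pass. So 1 of 9 genes was called higher, where 14.4% of all genes tested were, and 3 of 9 were called lower, where 7.34% were (4 of 9 against 21.7% in either direction). The count of 3 was 1 without TPS line 1, without TPS line 3 or with the line number as a block. By the lines alone, the groups did not overlap for 5 of 9 genes, against 42.7% of all genes tested. Of these 5, Dnmt3a lay above the EPS lines and Dnmt1, Uhrf1, Dnmt3l and Tet1 lay below them. In bulk RNA, fewer cells of a type and less RNA per cell cannot be told apart, and this holds for every value that follows.

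**Figure D1:**
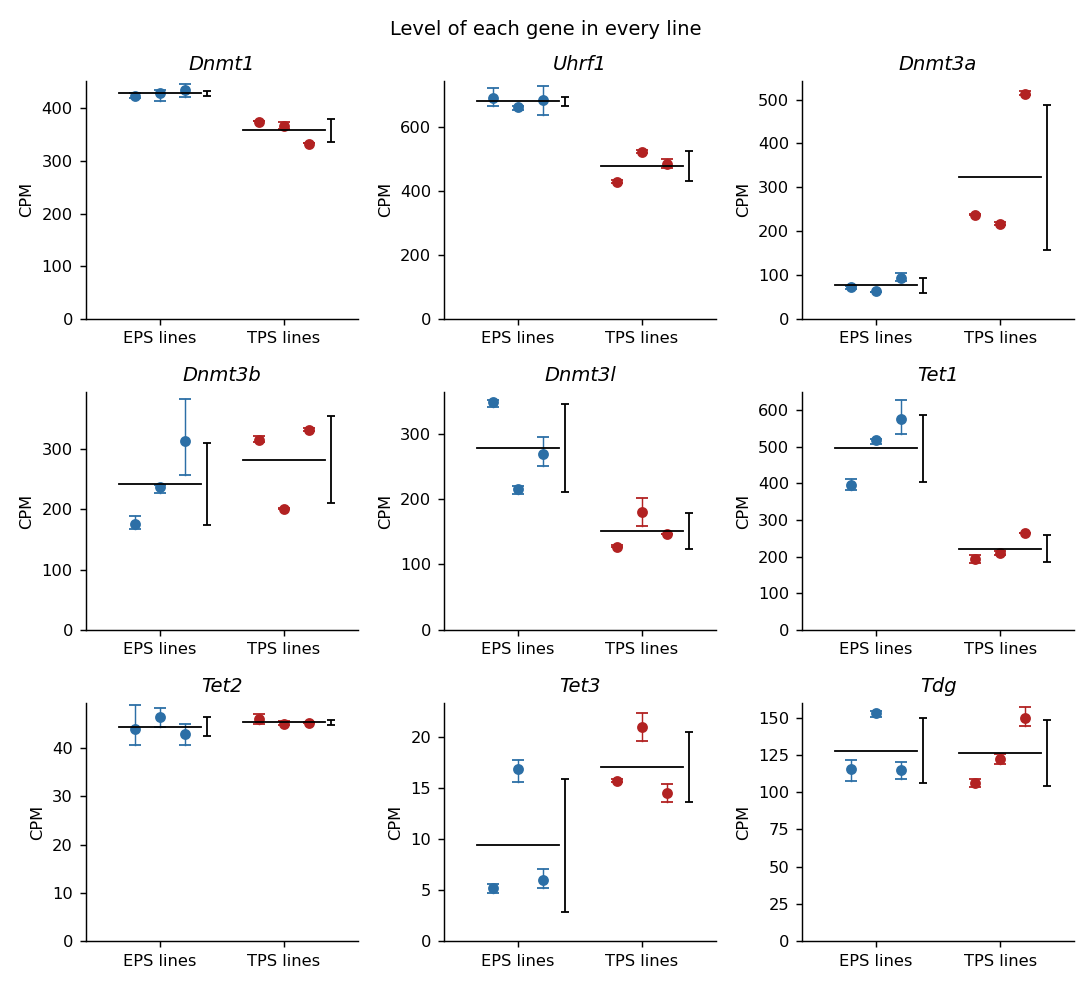
Level of the 9 genes in CPM (counts scaled to a common total with TMM factors) on linear axes from 0. Points are lines, in the order 1 to 3 within a group, short bars joined by a thin line are the technical replicates of a line, the long bar is the group mean and the black error bar its SD (n = 3 lines). Dnmt3a separates upward in TPS lines, from 217 to 513 CPM against 62.0 to 93.5 CPM, while Tet1, Uhrf1, Dnmt3l and Dnmt1 separate downward.

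For maintenance methylation, Uhrf1 (chr17:56303321-56323486, plus strand) stood at 429, 522 and 485 CPM in TPS lines 1 to 3 and at 693, 665 and 687 CPM in EPS lines 1 to 3. All TPS lines were below all EPS lines, and the EPS lines lay close together. The means were 479 ± 47.2 CPM (SD, n = 3 lines) and 682 ± 14.6 CPM (SD, n = 3 lines), a log2 fold change of -0.51 (SE 0.13, adjusted p = 0.0270 with edgeR). This call was a narrow one. The edgeR adjusted p was 0.0913 without TPS line 1, 0.0798 without TPS line 3, 0.0511 without EPS line 2 and 0.0603 without EPS line 3, with log2 fold changes of -0.44 to -0.58 over the 6 fits that left out a line. A near-identical gene, Gm5648, matches 44.3% of the longest Uhrf1 transcript at 95% identity or more, so some Uhrf1 reads may have been counted there or dropped. The line with the least Uhrf1, TPS line 1, had the highest summed level of fibroblast markers (10250 CPM) and the line with the most, EPS line 1, the lowest (2535 CPM).

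Dnmt1 (chr9:20907209-20959888, minus strand) stood at 374, 367 and 333 CPM in TPS lines and at 424, 429 and 434 CPM in EPS lines. The groups did not overlap here either, but the gap was small. The log2 fold change was -0.26 (SE 0.12) and did not pass the test (edgeR adjusted p = 0.143), and it ran from -0.30 to -0.21 when a line was left out and was -0.11 with library size alone as the scaling (adjusted p = 0.542). The ratio of Dnmt1 to Uhrf1 per length was 0.504, 0.406 and 0.396 in TPS lines and 0.354, 0.372 and 0.365 in EPS lines. It was higher in every TPS line, by 0.25 on the log2 scale. That difference was 0.14 without TPS line 1 and at most 0.32 when another line was left out. With 3 lines against 3 the two-sided exact permutation test cannot go below p = 0.1, and it gave p = 0.1 for this ratio (0.117 adjusted over the 7 ratios computed).

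Among the de novo genes Dnmt3a (chr12:3806007-3914443, plus strand) had the largest difference of the 9. It was at 237, 217 and 513 CPM in TPS lines and at 71.5, 62.0 and 93.5 CPM in EPS lines. Even the lowest TPS line was above the highest EPS line, and TPS line 3 stood 2.16 times as high as TPS line 1. The log2 fold change was 2.09 (SE 0.35, edgeR adjusted p = 0.00785), and it was 1.58 without TPS line 3, still past the threshold (adjusted p = 0.0107). Technical replicates of Dnmt3a differed by at most 1.21 times in any line.

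Dnmt3b (chr2:153649450-153687730, plus strand), the partner enzyme, stood at 316, 201 and 332 CPM in TPS lines and at 177, 236 and 314 CPM in EPS lines. The groups overlapped, with the second TPS line below 2 of the EPS lines. Its log2 fold change of 0.22 (SE 0.26, edgeR adjusted p = 0.572) was within the spread between lines. EPS line 3, the line with the poorest technical replicates, had 384 and 257 CPM in its libraries, and without it the log2 fold change was 0.44 (adjusted p = 0.280), while without EPS line 1 it was 0.013 (adjusted p = 0.978). The ratio of Dnmt3a to Dnmt3b per length was 0.231, 0.331 and 0.474 in TPS lines and 0.124, 0.0804 and 0.0914 in EPS lines. All TPS lines were higher, by 1.77 on the log2 scale (exact permutation p = 0.1, adjusted p = 0.117).

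Dnmt3l (chr10:78041947-78063622, plus strand), the cofactor without catalytic activity, moved the other way. It was at 127, 181 and 146 CPM in TPS lines and at 348, 216 and 269 CPM in EPS lines, with no overlap. The nearest lines, the second of each group, were 181 and 216 CPM. The log2 fold change was -0.88 (SE 0.21, edgeR adjusted p = 0.0246). Without TPS line 1, TPS line 3 or EPS line 1 the edgeR adjusted p was 0.0773, 0.0786 or 0.0541, and the log2 fold change stayed between -1.05 and -0.71 in all 6 fits without a line. With the line number as a block the log2 fold change was -0.87 and did not pass (edgeR adjusted p = 0.0706). Dnmt3l shares 67 exonic bases with Aire on the opposite strand, a gene with 3550 counts over all libraries, and how the counting treated strand is not given in the sources used here. As with Uhrf1, Dnmt3l was lowest in TPS line 1 and highest in EPS line 1, the lines with the most and the least fibroblast marker RNA.

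The ratio of Dnmt3l to Dnmt3a combined both movements and separated the groups most widely. It was 2.98, 4.64 and 1.58 in TPS lines and 27.1, 19.4 and 16.03 in EPS lines per length, so Dnmt3l stood above Dnmt3a per length in every line, and by less in each TPS line. The log2 difference was -2.86 (exact permutation p = 0.1, adjusted p = 0.117), and it ran from -3.23 to -2.45 when a line was left out. The ratio of Dnmt3l to Dnmt3b, at 0.688, 1.54 and 0.750 in TPS lines and 3.37, 1.56 and 1.47 in EPS lines, overlapped (exact permutation p = 0.2).

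Of the erasers, Tet1 (chr10:62804570-62908996, minus strand) was the one that passed the test. It stood at 193, 209 and 265 CPM in TPS lines and at 396, 518 and 575 CPM in EPS lines, with the highest TPS line well below the lowest EPS line. Its log2 fold change of -1.16 (SE 0.19, edgeR adjusted p = 0.00711) held in all 6 fits without a line, where it ran from -1.32 to -1.05 with adjusted p no higher than 0.0278.

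Tet2 (chr3:133463679-133545139, minus strand) varied least of the 9 genes over all 6 lines, at 46.0, 45.1 and 45.2 CPM in TPS lines and 44.1, 46.6 and 42.9 CPM in EPS lines. The lines overlapped throughout. Its log2 fold change of 0.030 (SE 0.12, edgeR adjusted p = 0.885) changed sign between settings and was 0.18 with library size alone as the scaling. Tet3 (chr6:83362373-83459084, minus strand), the TET enzyme of the zygote, stood at 15.7, 20.96 and 14.5 CPM in TPS lines and 5.22, 16.9 and 5.98 CPM in EPS lines. EPS line 2 stood apart from the other EPS lines and inside the TPS range. The log2 fold change of 0.86 (SE 0.45) did not pass the test (edgeR adjusted p = 0.207), and single EPS lines moved it both ways, to 1.58 without EPS line 2 (adjusted p = 0.0224), 0.55 without EPS line 1 (0.423) and 0.61 without EPS line 3 (0.419).

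Tdg (chr10:82629828-82650799, plus strand), the glycosylase downstream of the TET enzymes, was at 106, 122 and 150 CPM in TPS lines and 116, 154 and 115 CPM in EPS lines. The lines interleaved, and the log2 fold change of -0.022 (SE 0.18, edgeR adjusted p = 0.944) changed sign with the scaling. Its level is uncertain, because the copy Tdg-ps matches 84.8% of the longest Tdg transcript at 95% identity or more. Glt8d2 shares 367 exonic bases with Tdg on the opposite strand but had only 70 counts over all libraries.

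**Figure D2:**
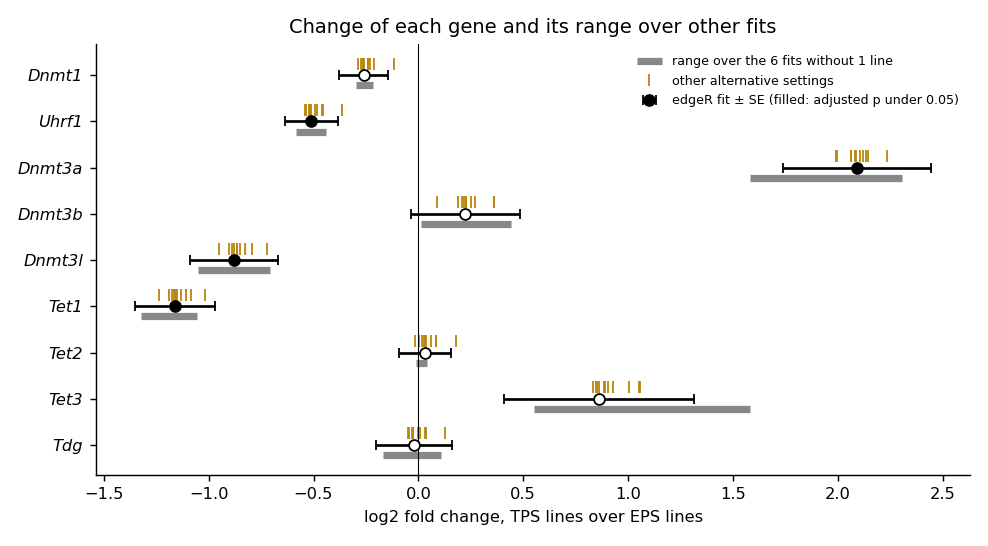
Log2 fold change of each gene, TPS lines over EPS lines, from the edgeR fit (circle, bar = SE, filled where the adjusted p was under 0.05). Grey bars span the 6 fits that each left out 1 line and ticks are the other settings. The fold changes of 7 of the 9 genes keep 1 sign in every fit, Dnmt1, Dnmt3b and Tet3 included though their circles are open, and the grey bars of Tet2 and Tdg cross 0.

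The make-up of each family was compared per length. CPM was divided by the exonic length of the gene in kilobases, since counts grow with length. The 4 DNMT genes summed to 174 ± 14.2 CPM per kb (SD, n = 3) in TPS lines and 203 ± 19.7 CPM per kb (SD, n = 3) in EPS lines. Dnmt3a made up 8.42%, 8.01% and 16.3% of this sum in TPS lines and 2.02%, 2.06% and 2.60% in EPS lines. Dnmt3l made up 25.1%, 37.2% and 25.7% in TPS lines and 54.7%, 40.1% and 41.7% in EPS lines, while the share of Dnmt1 overlapped between the groups.

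The 3 TET genes summed to 16.2, 17.4 and 20.7 CPM per kb in TPS lines and 28.6, 37.3 and 40.1 CPM per kb in EPS lines. Tet1 was the main TET transcript in every line, with 77.3%, 77.5% and 82.9% of the sum in TPS lines and 89.8%, 89.9% and 92.8% in EPS lines. The share of Tet2 was 15.1 ± 1.99% (SD, n = 3) in TPS lines and 7.63 ± 1.42% (SD, n = 3) in EPS lines, while the level of Tet2 itself was 45.4 and 44.5 CPM. The sum of Dnmt3a and Dnmt3b over the sum of the TET genes was 4.71, 3.00 and 4.64 in TPS lines and 1.36, 1.34 and 1.67 in EPS lines. Every TPS line was above every EPS line, by 1.48 on the log2 scale (exact permutation p = 0.1, adjusted p = 0.117). Tet1 over Tet2 and Tet1 over Tet3 were lower in every TPS line, by -1.19 and -2.21 on the log2 scale (exact permutation p = 0.1 for each, adjusted p = 0.117).

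**Figure D3:**
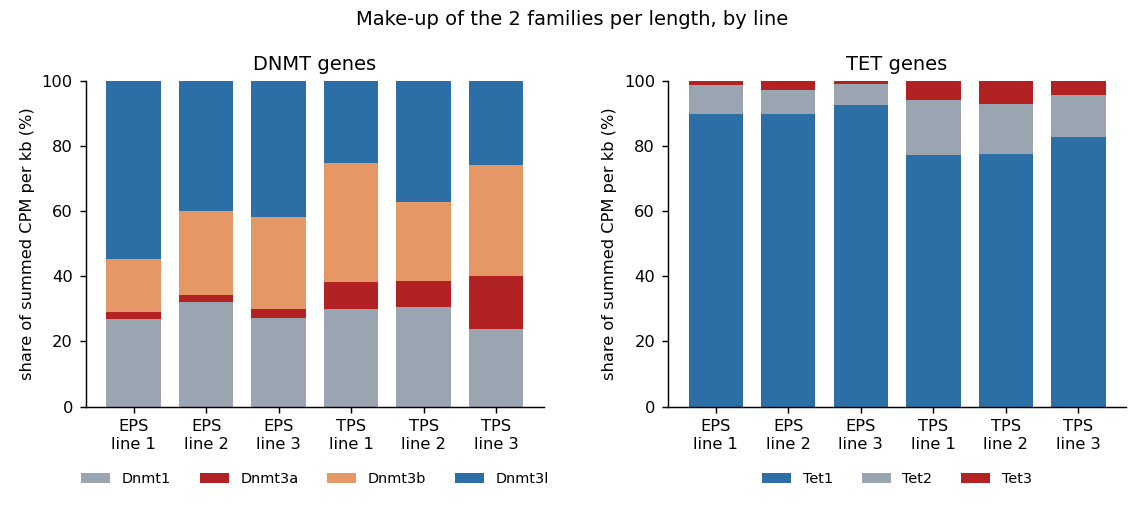
Share of each gene in the summed CPM per kb of the DNMT genes (left) and of the TET genes (right), 1 bar per line. The Dnmt3a segment is wider in all 3 TPS lines than in any EPS line, and the Tet1 segment falls from between 89.8% and 92.8% in EPS lines to between 77.3% and 82.9% in TPS lines.

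Ordered by CPM per kb of exon, Uhrf1 was highest in both groups, at 112 ± 11.1 in TPS lines and 160 ± 3.42 in EPS lines (SD, n = 3). Dnmt3b, Dnmt3l and Dnmt1 followed in TPS lines at 55.4 ± 14.0, 50.6 ± 9.07 and 48.5 ± 3.02 CPM per kb, which do not differ beyond their spread. In EPS lines Dnmt3l came next at 92.9 ± 22.3, then Dnmt1 at 58.2 ± 0.664 and Dnmt3b at 47.5 ± 13.5 CPM per kb, the latter pair within their spread. Dnmt3a was at 19.4 ± 9.95 CPM per kb in TPS lines, beside Tdg at 23.5 ± 4.14 and Tet1 at 14.4 ± 2.44. In EPS lines it was at 4.55 ± 0.972 CPM per kb, well under Tet1 at 32.1 ± 5.91 and Tdg at 23.8 ± 4.11. Tet2, at 2.69 and 2.64 CPM per kb, and Tet3, at 1.02 and 0.561 CPM per kb in TPS and EPS lines, were last in both. With the longest annotated transcript as the length instead of all exons, Dnmt3a was at 33.3 CPM per kb in TPS lines and 7.81 in EPS lines, Dnmt3l moved ahead of Dnmt3b in TPS lines, and Tdg (36.6 CPM per kb) moved ahead of Tet1 (34.6 CPM per kb) in EPS lines.

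Summed levels of fibroblast and of primitive endoderm markers were higher in TPS lines, while those of trophectoderm markers overlapped. The share of all genes tested that was called higher was 14.4%. All 16 fibroblast markers, genes typical of the cell type used as feeders, had positive log2 fold changes, with a median of 2.00, and 10 passed the test. Their summed level was 10250, 5578 and 5974 CPM in TPS lines and 2535, 4505 and 3962 CPM in EPS lines, and none of them was at 0 in any line. Fn1, which did not differ between the groups (log2 fold change 0.054, edgeR adjusted p = 0.903), made up 64.8% to 87.1% of the sum in EPS lines and 37.3% to 38.3% in TPS lines. The other 15 markers, summed after the data were seen, gave 6329, 3498 and 3688 CPM in TPS lines and 327, 1305 and 1393 CPM in EPS lines. The count of 10 rested on single lines, at 2 without TPS line 1, 4 without TPS line 3, 3 without EPS line 2 and 6 without EPS line 1 or EPS line 3. TPS line 1 was highest and EPS line 1 lowest by both sums. Over the lines, Uhrf1 and Dnmt3l each rose in the order in which the sum of all 16 fell. By the sum of 15, EPS line 2 and EPS line 3 changed places in that order. TPS line 3 had 2.16 times the Dnmt3a of TPS line 1 at 0.583 times its sum of all 16, and Tet1 was lowest among the EPS lines in EPS line 1. Of the 6 primitive endoderm markers 3 were higher in TPS lines (Gata6, Sox17 and Pdgfra, the last also a fibroblast gene), with a sum of 36.7 to 60.5 CPM against 11.3 to 18.6 CPM. Foxa2, Sox7 and Gata4 did not pass, with log2 fold changes of 1.99, 0.28 and -0.18 (edgeR adjusted p = 0.0554, 0.760 and 0.760). That count of 3 was 2 without TPS line 1, TPS line 3, EPS line 1 or EPS line 2. Of the 5 trophectoderm markers tested 2 were higher (Gata3 and Cdx2), and the sum of that list ran from 135 to 392 CPM in TPS lines and from 99.5 to 169 CPM in EPS lines. Krt8, Tfap2c and Eomes did not pass, with log2 fold changes of 2.77, 0.19 and -0.25. The count of 2 was 0 without TPS line 2 and 1 without EPS line 1 or EPS line 2. Of 4 Y-linked genes, Eif2s3y, Ddx3y and Uty were highest in line 1 of each group, with Eif2s3y at 55.4 CPM in TPS line 1 and 29.1 CPM in EPS line 1 against 0.883 to 3.60 CPM in the other 4 lines. Kdm5d was also highest in TPS line 1, at 18.4 CPM, but lowest in EPS line 1, at 0.327 CPM, and it alone of the 4 was called higher in TPS lines (edgeR adjusted p = 0.0432), a call that was lost without TPS line 1 or any single EPS line and that limma-voom did not make. Which cells made this RNA, and its part in the levels of the 9 genes, was not tested.

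**Figure D4:**
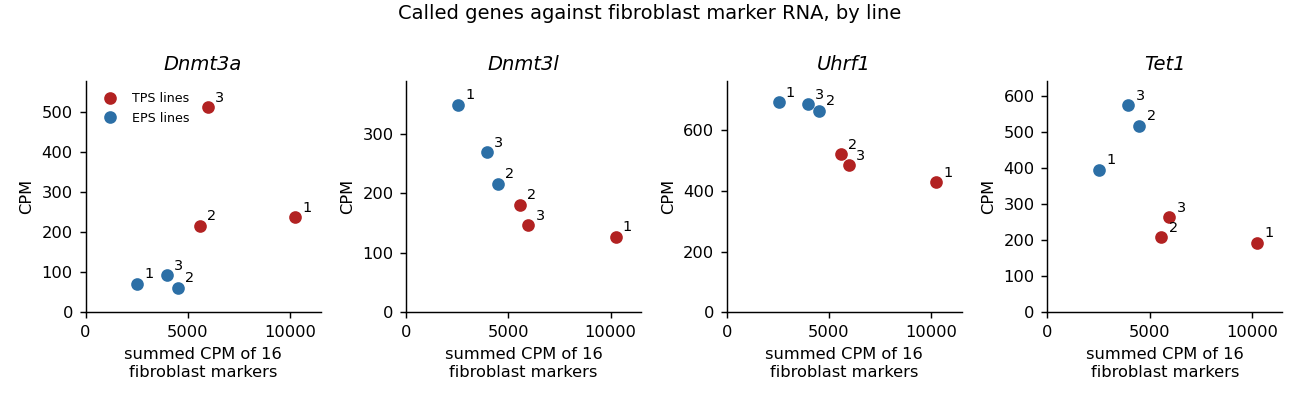
Level of the 4 called genes (CPM) against the summed CPM of 16 fibroblast markers, Fn1 included, 1 point per line with its number. Dnmt3l and Uhrf1 are lowest in TPS line 1, at 10250 CPM of fibroblast markers, while Dnmt3a is highest in TPS line 3, at 5974 CPM.

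Genes related to the 9 by descent were few. Uhrf2, the paralogue of Uhrf1, was higher in TPS lines, at 76.1, 67.8 and 72.3 CPM against 37.1, 52.6 and 38.8 CPM. Its log2 fold change was 0.75 (SE 0.17, edgeR adjusted p = 0.0194), so it went against Uhrf1, and the call was kept in 2 of the 6 fits without a line, with an adjusted p of up to 0.0603 in the others (without TPS line 1, TPS line 3, EPS line 1 or EPS line 3). Dnmt3c, the rodent enzyme that methylates young retrotransposons in male germ cells, was at 0.933 to 2.07 CPM in TPS lines and 0.784 to 1.12 CPM in EPS lines (log2 fold change 0.62, edgeR adjusted p = 0.314). Trdmt1, which methylates RNA in spite of its DNMT fold, had a log2 fold change of 0.38 (adjusted p = 0.340).

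Of 13 genes that recruit or regulate the enzymes, 1 was higher and 1 lower in TPS lines. Of all genes tested, 14.4% were higher and 7.34% lower. The median log2 fold change of the 13 was -0.10 beside -0.0038 over all genes tested. Zfp57, a zinc finger protein that keeps imprints methylated, was at 96.4, 91.9 and 173 CPM in TPS lines and 287, 256 and 189 CPM in EPS lines. No lines overlapped (log2 fold change -1.02, SE 0.28, edgeR adjusted p = 0.0360), but TPS line 3 was near EPS line 3 and the call was kept in 2 of the 6 fits without a line (lost without TPS line 1, TPS line 2, EPS line 1 or EPS line 2). Ctcfl, the germ cell paralogue of Ctcf, was at 7.12, 1.92 and 3.11 CPM in TPS lines and at 0.196, 0.177 and 0.0285 CPM in EPS lines. Its fitted log2 fold change was 4.90 (SE 0.77, edgeR adjusted p = 0.00644), and no EPS library held more than 6 of its counts. Dppa3, which keeps UHRF1 off chromatin in the oocyte, was at 105, 44.3 and 84.9 CPM in TPS lines and 40.1, 77.9 and 48.4 CPM in EPS lines (adjusted p = 0.350). Usp7, Setdb1 and Cdca7 had log2 fold changes of -0.48, -0.41 and -0.28 that did not pass, with edgeR adjusted p of 0.0785, 0.133 and 0.126. The remaining 7 were Hells, Trim28, Prdm14, Ehmt1, Ehmt2, Cdca7l and Ctcf, which had log2 fold changes of -0.15 to 0.089.

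None of the 10 methyl-CpG readers passed edgeR's test, with 4 at an unadjusted p under 0.05, and limma-voom also called none. DESeq2 called 2 of them higher. Of the 15 alternative edgeR fits 7 called none, 6 called 1 higher, library size alone gave 2 higher, and a fit that treats the 12 libraries as independent called 4 higher and 3 lower. Their median log2 fold change was 0.018, and the nearest to the threshold was Mbd2 at 27.1, 35.8 and 34.9 CPM in TPS lines and 22.2, 23.7 and 19.4 CPM in EPS lines (log2 fold change 0.58, edgeR adjusted p = 0.0501). Of 8 TET partners and cofactor genes, Cxxc4 was higher at the low levels of 0.855 to 1.81 CPM against 0.294 to 0.512 CPM. Idh2, a mitochondrial source of the TET cosubstrate 2-oxoglutarate, was lower (log2 fold change -0.67, edgeR adjusted p = 0.0405). Each of the pair kept its call in 1 of the 6 fits without a line, the one without TPS line 2. The median of this list was -0.071, and over all genes tested 14.4% were called higher and 7.34% lower.

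Of 16 tested genes of base excision repair, the pathway that follows TDG, and of cytosine deamination, 7 were lower in TPS lines and 1 was higher. Over all genes tested 7.34% were lower and 14.4% higher. The median log2 fold change of the repair list was -0.29. Parp1, the sensor of single-strand breaks, was at 606, 572 and 544 CPM in TPS lines and 1086, 905 and 936 CPM in EPS lines (log2 fold change -0.76, SE 0.13, edgeR adjusted p = 0.00821). Neil2 and Neil1, glycosylases of the same repair path, had log2 fold changes of -1.66 and -1.22 (edgeR adjusted p = 0.00736 and 0.0195). Apobec3, a deaminase that restricts retroviruses, had -1.20 (adjusted p = 0.0169). Gadd45g was higher, at 25.6, 23.0 and 14.8 CPM in TPS lines and 3.69, 7.71 and 9.14 CPM in EPS lines (log2 fold change 1.62, adjusted p = 0.0211), and the call was lost without TPS line 1, TPS line 2 or EPS line 2. Apex1, Xrcc1 and Smug1 were also lower, with log2 fold changes of -0.67, -0.52 and -0.81. The count of 7 was 3 without TPS line 1 or TPS line 3 and 4 without any of the EPS lines, and Parp1, Neil2 and Apobec3 passed in all 6 of those fits.

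Methyl groups reach DNA from S-adenosylmethionine. Of 17 genes that supply or recycle it, 6 were lower and 1 higher in TPS lines, with a median of -0.26. The shares over all genes tested were 7.34% lower and 14.4% higher. Tdh, the threonine dehydrogenase that mouse stem cells use for this purpose, was at 173, 147 and 244 CPM in TPS lines and 545, 448 and 438 CPM in EPS lines. Its log2 fold change was -1.34 (SE 0.21, edgeR adjusted p = 0.00620). Gldc, which splits the glycine so made, had -1.01 (adjusted p = 0.00890), and Shmt2 and Mat2b had -0.92 and -0.65 (adjusted p = 0.0130 and 0.0134). These 4 passed in all 6 fits without a line, and the count of 6 was 4 without TPS line 1 or TPS line 2. Mat2a, the main synthetase of the donor, was at 273, 127 and 316 CPM in TPS lines and 66.5, 126 and 203 CPM in EPS lines, overlapping and not called (adjusted p = 0.205). The 1 called higher, Mat1a, was at 0.450 to 0.881 CPM in TPS lines and at 0.0294 CPM or less in EPS lines.

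Dnmt1 and Uhrf1 are known to peak in S phase, and 30 S-phase genes gave 3 lower and 1 higher in TPS lines, 25 negative values and a median log2 fold change of -0.22. The share called lower was little above the 7.34% of all genes tested, and the share called higher was under the 14.4%. Pola1, the catalytic subunit of DNA polymerase alpha, was at 88.8, 76.8 and 75.8 CPM in TPS lines and 156, 122 and 160 CPM in EPS lines (log2 fold change -0.86, edgeR adjusted p = 0.00900). Chaf1b and Mcm10 had log2 fold changes of -0.53 and -0.52, and Pcna, the clamp to which DNMT1 binds, had -0.34 without passing (adjusted p = 0.0959). Ccne1 was the gene called higher, at 0.51. The 3 lower calls were 1 without any single TPS line and 2 without EPS line 1 or EPS line 3, and Ccne1 lost its call in all 6 of those fits. Cell cycle phases were not measured in these libraries, and the part of this list in the levels of Dnmt1 and Uhrf1 was not tested.

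Germline genes of a list drawn up for silencing by DNA methylation were mostly higher in TPS lines. The list was chosen with earlier results of these data known, so its excess over all genes is a description and no independent test. Of 18, 15 were higher in TPS lines and none lower, where 14.4% and 7.34% of all genes tested were. The median log2 fold change of the list was 2.60. For these 15 no TPS line reached down to the EPS lines, which was so for 4119 of the 17468 genes tested. The 15 were picked by a test of the same values, so this adds no separate support. Sycp1, of the synaptonemal complex, was at 27.2, 31.3 and 30.3 CPM in TPS lines and 2.16, 2.33 and 3.39 CPM in EPS lines (log2 fold change 3.49, SE 0.24, edgeR adjusted p = 0.000588). Dazl, an RNA-binding protein of germ cells, was at 143, 76.3 and 51.1 CPM in TPS lines and 3.75, 1.21 and 3.67 CPM in EPS lines (log2 fold change 4.97, adjusted p = 0.00251). Slc25a31, an ATP carrier of sperm, and the tubulin Tuba3a had log2 fold changes of 5.06 and 3.50. Tuba3b was at 5.40 CPM or more in TPS lines and at 0.114 CPM or less in EPS lines. Tex101 was without a count in all EPS libraries, so TPS lines were at least 9.63-fold higher, taken against 3 counts per library. Ddx4, Sycp3 and Dpep3 did not pass, with log2 fold changes of 0.27, -0.020 and 1.46 (edgeR adjusted p = 0.437, 0.968 and 0.304). The count was 13 or 14 in the 6 fits without a line.

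RefSeq windows were found for 17 of the 18 genes of this list, and the richest 250-base window of each gene, exons included, held a median of 15 CpGs, from 8 at Rpl10l and Tuba3a to 31, beside a median of 6 over 27025 genes. Of the 3 genes that were not called, Ddx4 had the most CpGs of the list with 31, and Sycp3 and Dpep3 had 12 and 10. Methylation of these starts was not analysed here.

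**Figure D5:**
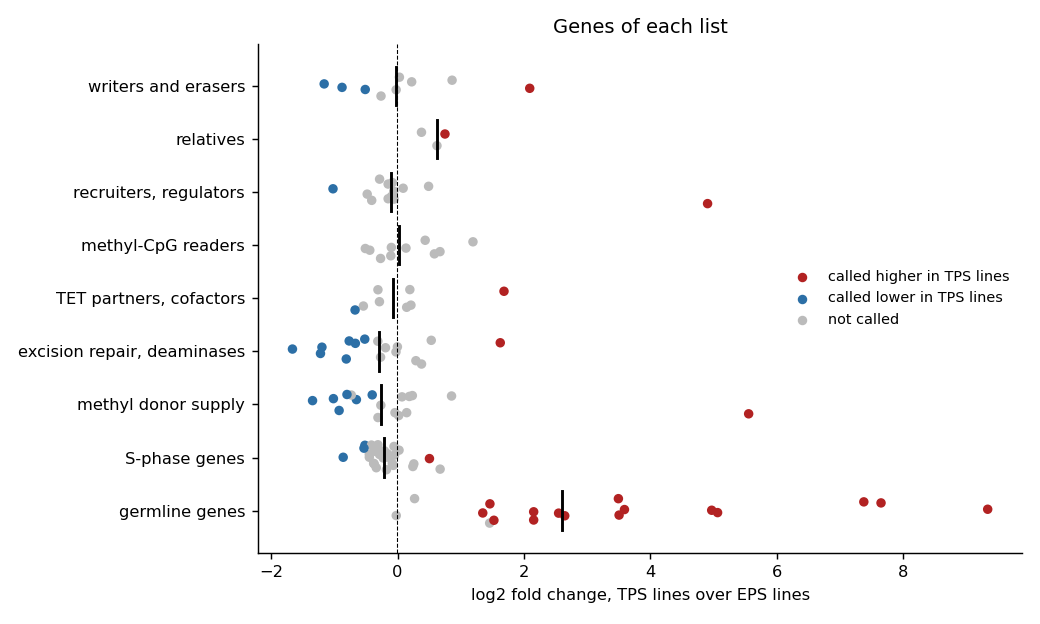
Log2 fold change (TPS lines over EPS lines) of every tested gene in 9 lists, with the list's median as a black bar and the median of all genes tested as the dashed line at -0.0038. The germline list lies to the right with a median of 2.60, and the repair and methyl donor lists lie slightly to the left with medians of -0.29 and -0.26.

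Patterns over lines were compared by Pearson correlation of log2(CPM + 1) with 9736 genes of at least 10 CPM, as a description over 6 lines that share the split into groups. The genes most like Dnmt3a were Fjx1 (r = 0.998), Minpp1 (0.992) and Tmem132a (0.989), and those most like Tet1 were Tmpo (0.997), Rbm39 (0.995) and Rpusd2 (0.994). Nearest to Uhrf1 were Atf4 (0.997), Pnma2 (0.995) and Slc7a1 (0.994), and nearest to Dnmt3l were Trib3 (0.9995), Nup43 (0.999) and Cbs (0.999). For the genes that did not pass the test they were Gm13316, Dazap2 and Pced1b for Dnmt1, 1810022K09Rik, Hnrnph1 and Srsf6 for Dnmt3b, Fam129b, Notch4 and Tmbim1 for Tet2, Fbxo21, Dag1 and Prcp for Tet3, and Midn, Hus1 and Letm1 for Tdg. With group means removed, over the 12 libraries, the nearest gene was Cbs for Dnmt3l (r = 0.950) and Rpusd2 for Tet1 (0.961), each the third over the lines, and Gpatch4 for Dnmt3a (0.969) and Bag6 for Uhrf1 (0.960). These 12 libraries are 6 pairs of technical replicates.

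Of the 36 pairs of members, 21 had a correlation of the same sign over the lines and within groups and 15 of opposite sign. Dnmt3a and Tet1 had r = -0.77 over the 6 lines and 0.69 within groups over the 12 libraries, since TPS line 3 and EPS line 3 were highest in their groups for both genes. Dnmt1 and Uhrf1 had r = 0.85 over the lines and -0.069 within groups. Among the pairs of 1 sign, Dnmt1 and Dnmt3a had r = -0.97 and -0.73, and Uhrf1 and Dnmt3l had r = 0.94 and 0.51.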

How the data were processed

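Each deposited file held the counts of 1 library, which the authors made per gene without normalization. Per the labels and the submitters' processing notes they used fastp 0.19.7 and STAR 2.7.3a on build mm10 (GRCm38.p6 in the study's methods). The counting tool, annotation and strand setting are not given in the sources used here. Of 55401 identifiers, 55141 matched GENCODE M21 without version. Technical replicates were summed per line. The test was edgeR 4.0.16 (R 4.3.3, quasi-likelihood, TMM, filterByExpr) on 17468 genes, 3 TPS lines against 3 EPS lines, adjusted by Benjamini-Hochberg at 0.05 and tested on simulated data. SE is the log2 fold change over the square root of F. Ratios used two-sided exact permutation over lines. The floor is 3 counts per library and covers counting error only, since without molecular identifiers reads of 1 molecule can repeat. Copies were sought with blastn 2.17.0. Upstream stretches are RefSeq's. Alternatives included DESeq2 1.42.0 and limma 3.58.1.

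The 9 genes and all lists were chosen with earlier results of these data known. The text names all members, their relatives and all regulators, up to 5 genes per list by smallest adjusted p, for each member the 3 genes of most like pattern over the lines, and for the called members the first with group means removed. Genes named beyond that were chosen after their values were seen.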

Additional observations from a re-analysis of the deposited data

Results flagged for a closer look

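Of 18 groups of 6 libraries (9 genes in 2 cell types), 1 held a library far from the others. Tet2 was at 47.2 CPM in a library of TPS line 1, and the next highest TPS library was at 45.6 CPM, a gap of 0.683 of the whole range of the group. Chance marks about 1 in 20 such groups, and the 6 libraries are 3 pairs of technical replicates. The other library of TPS line 1 was at 45.0 CPM.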

How the results depend on the processing

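Each log2 fold change was refitted under 17 alternatives. Dnmt3a (1.58 to 2.31) and Tet1 (-1.32 to -1.02) passed the test in all of them, and Dnmt3b (0.0133 to 0.44) in none. Uhrf1 no longer passed with library size alone (-0.36, adjusted p = 0.0853) or in 4 of 6 fits without a line (all 6: -0.58 to -0.44). Dnmt3l no longer passed in 3 of 6 such fits (all 6: -1.05 to -0.71). With the 12 libraries as separate samples, which counts technical replicates as independent, Dnmt1 (-0.24, adjusted p = 0.00409) and Tet3 (0.88, adjusted p = 0.0389) passed, giving 4 genes lower and 2 higher. Tet3 ran from 0.55 to 1.58 without a line. Tet2 was negative with technical replicate 1 alone (-0.0185) and ran from -0.0101 to 0.0422 without a line. Tdg was positive with upper quartile factors (0.036), library size alone (0.13), the CPM filter (0.006) and technical replicate 1 alone (0.0335), and ran from -0.17 to 0.11 without a line. Without a line, 1 to 3 genes were called lower and 1 or 2 higher. The causes were not tested.

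Line numbers are shared by both groups in the labels, but over genes same-numbered lines did not deviate together (correlations 0.024, -0.12 and 0.042). The Y-linked genes Eif2s3y, Ddx3y and Uty were highest in line 1 of both groups. Whether the numbers pair the lines is not given in the sources used here. With the line number as a block, edgeR gave Uhrf1 -0.52 (adjusted p = 0.0646) and Dnmt3l -0.87 (adjusted p = 0.0706), so 1 gene was called lower, and over all genes 1714 were higher and 721 lower instead of 2509 and 1282. Other counts over all genes were 4067 higher and 3610 lower with 12 libraries, 745 lower with library size alone, and 1617 to 2234 higher and 493 to 1047 lower without a line. Library size alone moved the median of all genes to 0.14 and the share of calls that were higher from 66.2% to 80.0%. Repair genes called lower were 3 to 8 and germline genes called higher 13 to 15 over the same alternatives, both run after seeing the data. All 7 ratios kept their direction in the 6 comparisons without a line, and TPM gives the same ratios by construction. With 3 lines a group the exact test limits their p to 0.1. The 9 genes had at least 59 counts in every library, and the effect of depth on them was not tested.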
